A study of Mus musculus with 9 samples.

Results

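The genes described here are 42 interferon-stimulated antiviral genes, taken from the table of expression values by their gene symbols. Of these, 39 have a named row among the 21212 rows of the table, and Isg15, Ddx60 and Ifi44 are not analysed here. The values come from cultures enriched in primary microglia of newborn (P0 to P1) wild-type CD-1 mice. The paper reports that few neurons and astrocytes remained. Each value is that of a whole culture and was not assigned to 1 cell type. The cells were obtained from the brains of pooled litters, isolated by Percoll gradient and cultured for 5 to 7 days with serum and with 10 ng/ml each of M-CSF and GM-CSF, and all of them were moved to serum-free medium overnight before stimulation. They then received an equal volume of PBS (resting cells), 100 ng/ml LPS (M1-skewed cells) or 20 ng/ml IL-4 (M2a-skewed cells) for 4 h. Each condition has 3 arrays, so that 9 were compared. Every value is a log2 expression value of 1 gene on 1 Affymetrix exon array, so that a difference of 1 between conditions is a 2-fold change. Values of different genes are not compared as amounts of RNA, since each gene is read by its own probes. The sources do not say whether the 3 arrays of a condition came from separate cultures, so the spread that the p-values below rest on is that of these arrays and may be technical in part.

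Type I interferons are secreted when a cell senses viral nucleic acid or, through TLR4 and the adaptor TRIF, bacterial LPS. They bind the receptor of the same or a neighboring cell, and the kinases JAK1 and TYK2 then activate a complex, with STAT2 and IRF9 among its parts, that binds the interferon-stimulated response element in the promoters of its target genes. The products of these genes detect viral RNA and DNA, degrade or sequester it, block the entry and release of virus particles, and adjust the signal itself. Microglia, the resident macrophages of the brain, are known to express many of them at rest, and IL-4 acts in the same cells through its own receptor and STAT6.

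The promoters of the members were searched for motifs, which were not themselves used to choose them. The members were chosen as interferon-stimulated genes, however, so a high share with the response element gives no independent support. Promoters were taken from RefSeq (build GRCm38.p6), from 250 bases before to 50 bases after each annotated start, and an entry was found for 27 of the 39 genes. The core of the response element, searched on both strands as GAAA, any 2 bases and GAAA again, was found in 13 of the 27 genes (48.1%) and in 3.99% of all 27025 genes with an entry (3.44% of 32851 promoters). A STAT site core, TTCNNNGAA, where N is any base and which reads alike on both strands and was allowed to overlap the other motif, was found in 9 of the 27 genes (33.3%) and in 9.55% of all genes. A match is a run of letters and not a shown binding site. The following stretches of 60 bases are shown since they hold the response element matches before the start of the IFIT and OAS members, of Rsad2 and of Ifi205, the member with the largest rise under LPS. Each is printed 5′ to 3′ along the strand of the gene, and capitals mark the fixed letters of the motif, GAAA or, on the other strand, TTTC.
Ifit1 (chr19:34640770-34640829, plus strand): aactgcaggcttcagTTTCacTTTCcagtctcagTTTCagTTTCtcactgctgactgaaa
Ifit3 (chr19:34583365-34583424, plus strand): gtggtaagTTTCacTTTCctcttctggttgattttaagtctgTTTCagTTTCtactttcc
Rsad2 (chr12:26456538-26456597, minus strand): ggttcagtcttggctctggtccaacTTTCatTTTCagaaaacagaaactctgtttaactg
Oas3 (chr5:120777700-120777759, minus strand): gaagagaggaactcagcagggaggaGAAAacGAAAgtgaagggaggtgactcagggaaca
Oas1a (chr5:120907526-120907585, minus strand): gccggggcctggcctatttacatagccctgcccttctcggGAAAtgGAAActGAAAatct
Oas1g (chr5:120887614-120887673, minus strand): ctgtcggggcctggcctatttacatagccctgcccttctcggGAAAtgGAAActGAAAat
Ifi205 (chr1:174031855-174031914, minus strand): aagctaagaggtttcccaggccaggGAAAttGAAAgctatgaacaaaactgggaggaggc
Ifit1 and Ifit3 hold 2 matches each in these stretches, and the matches of Oas1a and Oas1g overlap each other directly before the start. The promoters of Oas1a and Oas1g share an unbroken run of 73 bases, and since the transcripts of such close relatives are also alike, probes of 1 of these genes may read the other. The same holds for Ifit3 and Ifit3b, for Ifi204 and Ifi205, and within the Ifitm and Trim30 families. The 13 genes with a response element match had a median change of 1.99 with LPS and −0.89 with IL-4 on the log2 scale, and the 14 without a match in this window had medians of 1.97 and −0.62.

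The condition labels were checked with genes known for their response. All 6 LPS markers were higher with LPS and all 6 IL-4 markers were higher with IL-4 (limma, adjusted p under 0.05). Of 10 measured microglial markers, Csf1r, the receptor of M-CSF, lay between 10.77 and 11.90 and Tmem119 between 6.19 and 7.32 over the 9 arrays. Cx3cr1 had the widest range of the 10, from 7.60 on LPS replicate 2 to 10.86 on PBS replicate 3. Replicate 3 of PBS and of LPS stood apart from the other arrays of their condition in markers of microglia and of some other cells. The mean of the 10 microglial markers was 10.45 on PBS replicate 3 against 9.97 and 10.05, and 9.87 on LPS replicate 3 against 9.705 and 9.67. It lay between 10.12 and 10.22 with IL-4. The mean of 10 astrocyte markers was 10.46 against 9.92 and 9.90 with PBS, 10.32 against 9.86 and 9.84 with LPS, and 10.13 to 10.15 with IL-4. The mean of 14 motile cilia genes was 9.17 on PBS replicate 3 against 7.39 and 7.47, and 8.73 on LPS replicate 3 against 7.17 and 7.04, and it lay between 8.51 and 8.78 with IL-4. The mean of 10 oligodendrocyte markers was 8.58 against 7.62 and 7.58 with PBS, 8.39 against 7.40 and 7.43 with LPS, and 7.68 to 7.99 with IL-4. The interferon-stimulated genes did not move in the same manner. Replicate 3 differed from the mean of replicates 1 and 2 by a median of 0.043 with PBS and 0.058 with LPS over the 39 genes, and by more than 0.5 only for Oasl1, Ifi204 and Ifi44l with PBS and for Ifi204 and Ifi44l with LPS.

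LPS raised and IL-4 lowered most of the interferon-stimulated genes. The median value of the 39 genes was 9.12, 9.07 and 9.13 on the PBS arrays, 11.55, 11.52 and 11.59 on the LPS arrays and 8.43, 8.29 and 8.33 on the IL-4 arrays. With LPS 36 of the 39 genes were higher than with PBS (limma, adjusted p under 0.05), where 15.4% of all rows were called higher and 22.4% lower. The median change of the 39 genes was 2.005 on the log2 scale, against 0.0051 over all rows. Subtraction of each array's median moves the LPS change of the median row to 0.12, and changes of the members are to be read against that shift. No member was called lower with LPS, also at an unadjusted p under 0.05 (limma and the methods' t-test, 0 each), but Ifitm6 was called lower under 3 alternatives given with that gene. Without replicate 3 of PBS and of LPS, a choice made with the values in view, 37 genes were higher and 1 lower.

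With IL-4, 32 of the 39 genes were lower than with PBS (limma, adjusted p under 0.05), where 2.05% of all rows were called lower and 3.35% higher. No member was called higher (limma and the methods' t-test, 0 each also at an unadjusted p under 0.05). The median change was −0.87 on the log2 scale, against −0.017 over all rows, and the methods' t-test with Benjamini-Hochberg adjustment called 26 of the genes lower. All 39 genes were higher with LPS than with IL-4 (limma, adjusted p under 0.05), where 21.0% of all rows were, with a median difference of 2.89. The smallest of these differences, that of Ifitm3, was 0.20, and without IL-4 replicate 1 it was 0.16 with an adjusted p of 0.0635 (limma). For 30 genes both changes were called, higher with LPS and lower with IL-4, as they were for 0.778% of all rows. On the arrays themselves, every LPS value lay above every PBS value for 36 genes (20.4% of all rows) and every IL-4 value under every PBS value for 37 (14.3% of all rows). Every LPS value lay above every IL-4 value for all 39 genes (28.4% of all rows). Every IL-4 value lay under every PBS value and every PBS value under every LPS value for 34 genes, an order found in 3.16% of all rows. The 5 exceptions were Ifitm3, Ifitm6, Samhd1, Tor3a and Lgals3bp. Both comparisons use the same PBS arrays and are not independent of each other. In these cultures fewer cells of a type and less RNA per cell cannot be told apart. Of the 10 microglial markers none was called with IL-4 (limma, 1 at an unadjusted p under 0.05, and none by the adjusted t-test), with array means of 9.97 to 10.45 (PBS) and 10.12 to 10.22 (IL-4). Of 10 fibroblast markers 6 were higher with IL-4, with array means of 8.63 to 8.85 (PBS) and 9.32 to 9.34 (IL-4), and their part in the fall of the interferon-stimulated genes was not tested. Of 7 endothelial markers 2 were higher with IL-4, with array means of 6.01 to 6.20 (PBS) and 6.31 to 6.38 (IL-4). With LPS 6 microglial markers were lower and 1 was higher, with array means of 9.67 to 9.87, and none of the fibroblast markers was higher and 1 was lower.

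**Figure D1:**
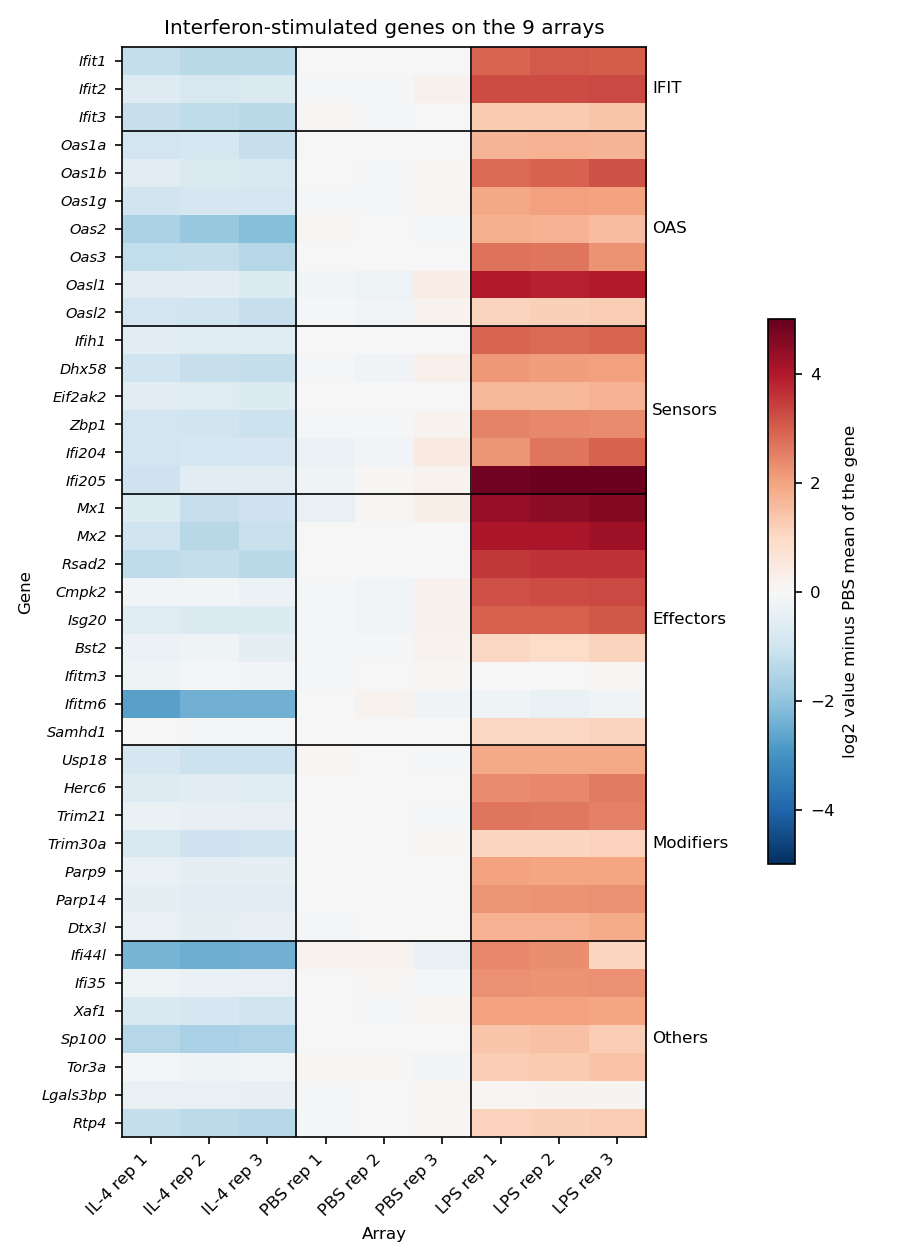
Log2 value of each of the 39 genes minus its PBS mean on the 9 arrays, with genes in rows grouped by role and arrays in columns grouped by condition, red above and blue below the PBS mean. The LPS columns are red in all rows but those of Ifitm3, Ifitm6 and Lgals3bp, and the IL-4 columns are blue to a smaller extent, most strongly for Ifitm6 and Ifi44l.

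The IFIT proteins bind viral RNA that lacks the marks of host mRNA and keep it from being translated. All 3 IFIT genes among the members rose with LPS and fell with IL-4. The values of Ifit1 were 9.22, 9.26 and 9.28 with PBS, 12.15, 12.30 and 12.27 with LPS and 8.07, 7.92 and 7.89 with IL-4. They form 3 separate bands, and Ifit1 rose 7.91-fold with LPS (2.98 ± 0.065, SE of the log2 difference, 3 arrays per condition, limma adjusted p = 1.32e-08) and fell 2.45-fold with IL-4 (−1.30 ± 0.065, adjusted p = 3.39e-05). Ifit2 was at 8.97, 8.99 and 9.28 with PBS, 12.33, 12.34 and 12.37 with LPS and 8.43, 8.29 and 8.35 with IL-4. It had the largest rise of these 3 genes (3.26 ± 0.085) and the smallest fall (−0.73 ± 0.085, limma adjusted p = 0.00231), which the methods' t-test did not call (adjusted p = 0.0640). Ifit3, which forms a complex with the other IFIT proteins, was at 10.79, 10.70 and 10.74 with PBS, 12.04, 12.06 and 12.12 with LPS and 9.58, 9.49 and 9.39 with IL-4. Its rise (1.33 ± 0.06) and its fall (−1.25 ± 0.06) were close in size.

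The active enzymes of the OAS family make 2-5A, a short chain of adenosines, upon contact with double-stranded RNA and so switch on the nuclease RNase L. All 7 OAS genes rose with LPS (median change 1.99) and 6 fell with IL-4 (median change of the 7 genes −1.003). Oasl1, an OAS-like protein known to restrain the translation of Irf7 mRNA, was at 7.53, 7.45 and 8.08 with PBS, 11.63, 11.54 and 11.65 with LPS and 7.13, 7.10 and 7.02 with IL-4. LPS values lay far above the rest, for a 15.2-fold rise (3.92 ± 0.14, limma adjusted p = 2.19e-07). PBS replicate 3 was the highest of the PBS arrays, and the IL-4 change of −0.60 ± 0.14 was not called (limma adjusted p = 0.0528), although all IL-4 values lay under all PBS values. Without PBS replicate 3 the IL-4 change was −0.41 and was called (limma adjusted p = 0.00859). Oas1b, known for protecting mice against flaviviruses, was at 7.50, 7.38 and 7.51 with PBS, 10.30, 10.39 and 10.63 with LPS and 6.89, 6.72 and 6.71 with IL-4. It rose 7.88-fold (2.98 ± 0.094) and fell 1.61-fold (−0.68 ± 0.094), with no overlap of conditions. Oas2 was at 9.16, 9.06 and 8.99 with PBS, 10.84, 10.82 and 10.63 with LPS and 7.48, 7.20 and 6.94 with IL-4. Its fall with IL-4 was the largest of the family, 3.64-fold (−1.87 ± 0.13, limma adjusted p = 1.68e-04), beside a 3.23-fold rise with LPS (1.69 ± 0.13). Oas3 was at 7.65, 7.65 and 7.65 with PBS, 10.36, 10.31 and 9.89 with LPS and 6.41, 6.48 and 6.23 with IL-4, and the third LPS array lay below the other LPS arrays but above all others. Oas3 rose 5.79-fold and fell 2.42-fold (2.53 ± 0.12 and −1.27 ± 0.12). Oas1a, Oas1g and Oasl2 rose by 1.71, 1.99 and 1.20 on the log2 scale, and their IL-4 changes of −1.003, −0.89 and −1.03 were called as well.

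Sensors of foreign nucleic acid rose together with LPS, 6 of the 6 measured genes, with a median change of 2.51, and 5 of them fell with IL-4. Ifi205, of the p200 family that binds foreign DNA, had the largest rise of all members. Its values were 7.03, 7.32 and 7.45 with PBS, 12.08, 12.15 and 12.16 with LPS and 6.23, 6.75 and 6.73 with IL-4. The LPS arrays lie far above the rest, for a 29.1-fold rise (4.86 ± 0.15, limma adjusted p = 8.65e-08). The fall with IL-4 was −0.70 ± 0.15 (limma adjusted p = 0.0358), and this call was lost, at adjusted p between 0.0569 and 0.124, without any 1 of PBS replicates 2 and 3, LPS replicates 1 and 2 or IL-4 replicates 1, 2 and 3, where the change was −0.53 to −0.79. The 6 arrays alone (adjusted p = 0.0767, limma) and the t-test (adjusted p = 0.199) lost it too. Its relative Ifi204 was at 7.79, 7.94 and 8.52 with PBS, 10.28, 10.77 and 11.04 with LPS and 7.12, 7.19 and 7.25 with IL-4, with replicate 3 the highest in both the PBS and the LPS group. Ifi204 rose by 2.62 ± 0.22, while the IL-4 change of −0.90 ± 0.22 was not called (limma adjusted p = 0.0572). It was called with the replicate number as a block (adjusted p = 0.0142), without LPS replicate 1 (0.0399) and without LPS replicate 3 (0.0355), all by limma.

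Ifih1 (MDA5), which detects long double-stranded RNA in the cytosol, was at 9.22, 9.21 and 9.22 with PBS, 12.11, 12.06 and 12.14 with LPS and 8.65, 8.61 and 8.59 with IL-4. The arrays of a condition lay close together, with a 7.41-fold rise (2.89 ± 0.045, limma adjusted p = 4.30e-09) and a 1.51-fold fall (−0.59 ± 0.045, adjusted p = 2.67e-04). PBS replicates 1 and 3 of Ifih1 have the same deposited value (9.2175), so its SE may be too small. Dhx58 (LGP2), which tunes the response of MDA5, was at 8.58, 8.52 and 8.95 with PBS, 10.84, 10.77 and 10.73 with LPS and 7.69, 7.53 and 7.49 with IL-4. Zbp1, a sensor of Z-form nucleic acid that can start cell death, was at 8.70, 8.67 and 8.94 with PBS, 11.23, 11.18 and 11.12 with LPS and 7.82, 7.79 and 7.69 with IL-4. Both genes had 3 separate bands of values, and their falls with IL-4 (−1.11 ± 0.11 and −1.003 ± 0.08) were the largest called among the sensors, beside rises of 2.09 ± 0.11 and 2.41 ± 0.08. Eif2ak2 (PKR), the kinase that stops translation upon contact with double-stranded RNA, rose by 1.69 ± 0.052 and had an IL-4 change of −0.62 ± 0.052 (limma adjusted p = 4.04e-04).

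Direct effectors were the most varied group. Of 9 genes 7 rose with LPS and 5 fell with IL-4. Mx1 and Mx2 are dynamin-like GTPases that trap viral components. Mx1 was at 6.61, 7.04 and 7.30 with PBS, 11.35, 11.46 and 11.59 with LPS and 6.31, 5.84 and 5.96 with IL-4, and Mx2 at 6.81, 6.81 and 6.81 with PBS, 10.90, 10.88 and 11.03 with LPS and 5.80, 5.41 and 5.69 with IL-4. LPS values lay far above the rest for both, with rises of 22.3-fold (4.48 ± 0.18, limma adjusted p = 3.67e-07) and 17.4-fold (4.12 ± 0.095, adjusted p = 1.72e-08). The 3 PBS values of Mx2 are identical to all deposited digits, so its spread with PBS is not that of 3 separate readings. Values repeat within a condition for 6 of the 39 genes (Mx2, Oas1g, Oas3, Ifih1, Eif2ak2 and Dtx3l) and 18.4% of all rows, and the SEs of these genes may be too small. The falls of Mx1 and Mx2 with IL-4 were −0.95 ± 0.18 and −1.18 ± 0.095 (limma adjusted p = 0.0216 and 3.51e-04). That of Mx1 was not called without PBS replicate 2 (adjusted p = 0.0849), IL-4 replicate 2 (0.0923) or IL-4 replicate 3 (0.0971), with the 6 arrays alone (0.0516, limma) or by the t-test (0.160). Rsad2 (viperin), which makes a nucleotide that stalls viral polymerases, was at 8.96, 8.96 and 8.95 with PBS, 12.49, 12.55 and 12.55 with LPS and 7.68, 7.77 and 7.59 with IL-4. The bands are narrow and far apart, with a 11.9-fold rise (3.58 ± 0.055, limma adjusted p = 4.30e-09) and a 2.42-fold fall (−1.27 ± 0.055, adjusted p = 2.14e-05). The exonuclease gene Isg20 rose by 3.04 ± 0.091 and had an IL-4 change of −0.65 ± 0.091, which the t-test did not call (adjusted p = 0.0812).

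The other effectors departed from the common pattern in different ways. Cmpk2, a mitochondrial nucleotide kinase whose gene lies beside Rsad2, was at 8.95, 8.90 and 9.26 with PBS, 12.24, 12.30 and 12.35 with LPS and 8.88, 8.89 and 8.76 with IL-4. It rose 9.59-fold with LPS (3.26 ± 0.097, limma adjusted p = 6.27e-08), yet its IL-4 change of −0.19 ± 0.097 was not called (adjusted p = 0.305) and the IL-4 values lay just under the lowest PBS value. Samhd1, which depletes the nucleotides that viral DNA synthesis needs, was at 11.08, 11.06 and 11.04 with PBS, 12.09, 12.10 and 12.18 with LPS and 11.06, 11.00 and 11.00 with IL-4. The LPS band stood alone, with a rise of 1.06 ± 0.048, and PBS and IL-4 values overlapped (−0.04 ± 0.048, limma adjusted p = 0.665). Bst2 (tetherin), which holds budding virus particles at the membrane, was at 9.59, 9.64 and 9.85 with PBS, 10.72, 10.60 and 10.81 with LPS and 9.40, 9.47 and 9.25 with IL-4. It rose 2.03-fold with LPS (1.02 ± 0.092) and was not called with IL-4 (−0.32 ± 0.092, limma adjusted p = 0.0933) although the values did not overlap.

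The Ifitm proteins hinder the fusion of viruses with cell membranes. Ifitm3 was at 12.49, 12.56 and 12.62 with PBS, 12.57, 12.58 and 12.64 with LPS and 12.33, 12.44 and 12.42 with IL-4. The PBS and LPS values overlapped, the IL-4 values lay just under them, and neither change was called (0.039 ± 0.056 with LPS and −0.16 ± 0.056 with IL-4, limma adjusted p = 0.624 and 0.152). Ifitm6 was at 10.38, 10.54 and 10.20 with PBS, 10.15, 10.04 and 10.22 with LPS and 7.65, 7.99 and 7.96 with IL-4. PBS and LPS values overlapped, and the IL-4 values lay far below both, for the largest fall of all members, 5.69-fold (−2.51 ± 0.11, limma adjusted p = 2.27e-05). The LPS change of Ifitm6 was −0.24 ± 0.11 (limma adjusted p = 0.140). It was called lower with array weights (−0.39, adjusted p = 0.00853), after another quantile normalization (−0.34, adjusted p = 0.0470) and without replicate 3 of PBS and of LPS (−0.37, adjusted p = 0.0411).

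**Figure D2:**
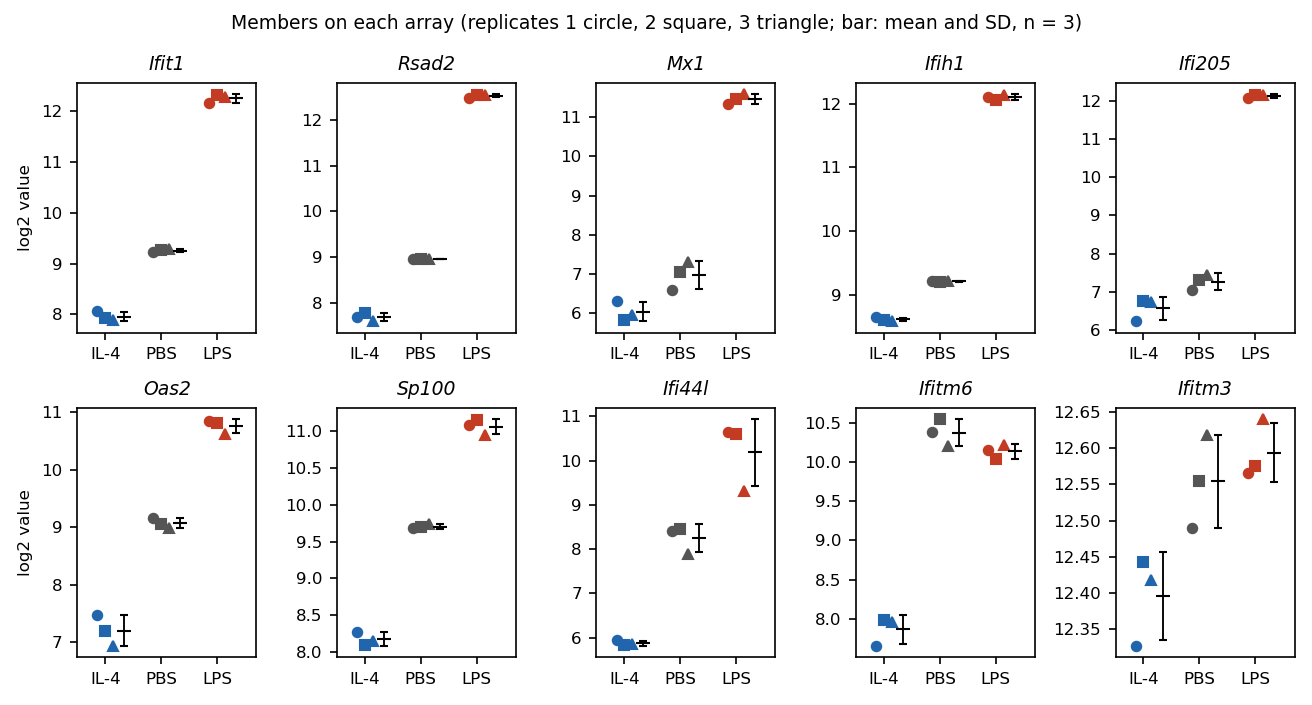
Log2 values of 10 members on each array, in blue for IL-4, grey for PBS and red for LPS, with circles, squares and triangles for replicates 1, 2 and 3 and a bar for the mean and SD of 3 arrays, each panel on its own scale. Most members form 3 separate bands, while LPS replicate 3 of Ifi44l lies 1.30 below the mean of the other LPS arrays and the PBS and LPS values of Ifitm6 and Ifitm3 overlap.

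A further group acts by attaching or removing ISG15, ubiquitin and ADP-ribose. All 7 measured genes rose with LPS (median change 1.98) and all 7 fell with IL-4 (median change −0.50). Trim21, a cytosolic antibody receptor and ubiquitin ligase, was at 8.90, 8.91 and 8.81 with PBS, 11.55, 11.52 and 11.38 with LPS and 8.55, 8.47 and 8.46 with IL-4. It had the largest rise of the group, 6.09-fold (2.61 ± 0.062, limma adjusted p = 2.04e-08), and the smallest fall (−0.38 ± 0.062, adjusted p = 0.0103), which was not called without PBS replicate 2 (−0.37, adjusted p = 0.0539), IL-4 replicate 2 (−0.37, 0.0542) or IL-4 replicate 3 (−0.37, 0.0565). Herc6, the main ISG15 ligase of the mouse, was at 9.24, 9.21 and 9.26 with PBS, 11.60, 11.64 and 11.82 with LPS and 8.60, 8.69 and 8.62 with IL-4, with a rise of 2.45 ± 0.066 and a fall of −0.60 ± 0.066 and no overlap. Usp18, which removes ISG15 and dampens the interferon receptor, was at 10.62, 10.50 and 10.44 with PBS, 12.41, 12.41 and 12.42 with LPS and 9.68, 9.44 and 9.45 with IL-4. Trim30a, a restrainer of TLR signals, was at 10.94, 10.96 and 11.03 with PBS, 12.04, 12.06 and 12.14 with LPS and 10.18, 9.96 and 9.98 with IL-4. These 2 genes had the largest falls of the group (−0.99 ± 0.076 and −0.94 ± 0.069, limma adjusted p = 2.84e-04 and 2.47e-04), beside rises of 1.89 ± 0.076 and 1.11 ± 0.069. Parp9 and its partner Dtx3l rose by 1.98 ± 0.053 and 1.78 ± 0.062, and Parp14, which is also known as a co-activator of STAT6, rose by 2.24 ± 0.048. Their IL-4 changes were −0.43 ± 0.053, −0.42 ± 0.062 and −0.50 ± 0.048, all called by limma.

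Of the 7 remaining genes 6 rose with LPS and 6 fell with IL-4. Ifi44l, a gene of largely unknown function with a strong interferon response, was at 8.42, 8.45 and 7.89 with PBS, 10.64, 10.59 and 9.32 with LPS and 5.94, 5.83 and 5.85 with IL-4. LPS replicate 3 lay well below the other LPS arrays and PBS replicate 3 below the other PBS arrays, and the SE is therefore large. Its IL-4 fall was 5.21-fold (−2.38 ± 0.33, limma adjusted p = 0.00511) and its LPS rise 3.81-fold (1.93 ± 0.33, adjusted p = 0.00170), which the t-test did not call (adjusted p = 0.0558). Sp100, a component of nuclear bodies that silence viral DNA, was at 9.68, 9.70 and 9.74 with PBS, 11.08, 11.16 and 10.96 with LPS and 8.28, 8.09 and 8.15 with IL-4. It fell 2.89-fold with IL-4 (−1.53 ± 0.069, limma adjusted p = 2.20e-05) and rose 2.57-fold with LPS (1.36 ± 0.069). Rtp4, a chaperone of membrane receptors with antiviral activity, moved almost equally in both directions (1.21 ± 0.07 with LPS and −1.31 ± 0.07 with IL-4).

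Ifi35, a binding partner of Nmi, was at 8.68, 8.77 and 8.63 with PBS, 10.96, 10.94 and 10.96 with LPS and 8.43, 8.36 and 8.33 with IL-4, and Xaf1, a promoter of cell death, was at 8.87, 8.82 and 8.99 with PBS, 10.91, 10.90 and 10.88 with LPS and 8.13, 8.04 and 7.88 with IL-4. They had the largest rises of this group (2.26 ± 0.052 and 2.005 ± 0.073) and separate bands, with IL-4 falls of −0.32 ± 0.052 and −0.87 ± 0.073 (limma adjusted p = 0.0115 and 3.92e-04). The fall of Ifi35 was not called without PBS replicate 2 (−0.28, adjusted p = 0.0551), IL-4 replicate 2 (−0.31, 0.0585) or IL-4 replicate 3 (−0.30, 0.0624), or by the t-test (0.0674). Tor3a, a torsin ATPase, was at 10.70, 10.69 and 10.50 with PBS, 11.91, 11.94 and 12.05 with LPS and 10.56, 10.40 and 10.48 with IL-4. It rose by 1.33 ± 0.073, and PBS and IL-4 values overlapped (−0.15 ± 0.073, limma adjusted p = 0.283). Lgals3bp, a secreted glycoprotein that binds galectins, was at 11.90, 11.95 and 12.07 with PBS, 12.07, 12.09 and 12.13 with LPS and 11.61, 11.61 and 11.55 with IL-4. The PBS and LPS values met, with an LPS change of 0.12 ± 0.057 that was not called (limma adjusted p = 0.124) and an IL-4 fall of −0.38 ± 0.057 that was (adjusted p = 0.00739, and 0.0620 by the t-test). Without PBS replicate 3 the LPS change of Lgals3bp was 0.18 and was called (limma adjusted p = 0.0301), and it was 0.24 with array medians subtracted (adjusted p = 0.00764).

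Gene by gene, the rise and the fall were not of 1 size. The difference between them was tested for each row as the sum of the LPS change and the IL-4 change (limma, adjusted over all rows), a contrast added with the values in view. For 23 of the 30 genes with both changes called the rise was larger than the fall, and for none of them was the fall larger. Among all rows both changes were called for 165. Of these the rise was larger for 112 (0.528% of all rows) and the fall for 1 (0.00471% of all rows). A larger rise was thus common among all rows with both changes called and is not particular to the members. Among these 30 genes the largest excess of rise over fall was 4.16 ± 0.26 for Ifi205, followed by 3.53 ± 0.31 for Mx1 and 2.95 ± 0.16 for Mx2. For the 7 other genes the difference was not called. The sum was 0.077 ± 0.10 for Ifit3 (adjusted p = 0.692, limma), −0.098 ± 0.12 for Rtp4 (0.659), 0.17 ± 0.12 for Trim30a (0.402) and 0.17 ± 0.16 for Oasl2 (0.560). It was −0.17 ± 0.22 for Oas2 (0.676), −0.17 ± 0.12 for Sp100 (0.381) and −0.45 ± 0.57 for Ifi44l (0.668). These values do not show that rise and fall are equal. Of the 9 genes outside the 30, the sum was called above 0 for 6, which all rose with LPS and were not called with IL-4. It was 3.32 ± 0.25 for Oasl1, 3.07 ± 0.17 for Cmpk2 and 1.72 ± 0.39 for Ifi204, and 1.18 ± 0.13 for Tor3a, 1.02 ± 0.083 for Samhd1 and 0.70 ± 0.16 for Bst2. Ifitm6 had a sum of −2.75 ± 0.20 (adjusted p = 3.16e-05, limma), the only member with a sum called below 0, and Ifitm3 and Lgals3bp were not called.

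The same contrast of sizes can be read as the place of the resting mean between the IL-4 mean and the LPS mean of each gene. The resting mean lay near the IL-4 mean for Samhd1 (3.66% of the way up to LPS), Cmpk2 (5.53%) and Tor3a (10.2%). It lay at 12.3% for Ifi35, 12.6% for Ifi205 and 17.1% for Ifih1. It was in the middle for Rtp4 (51.9%), Oas2 (52.4%), Sp100 (53.0%) and Ifi44l (55.2%). Members of 1 family were therefore placed apart, such as 18.2% for Ifit2 and 48.5% for Ifit3, or 13.3% for Oasl1 and 46.2% for Oasl2.

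**Figure D3:**
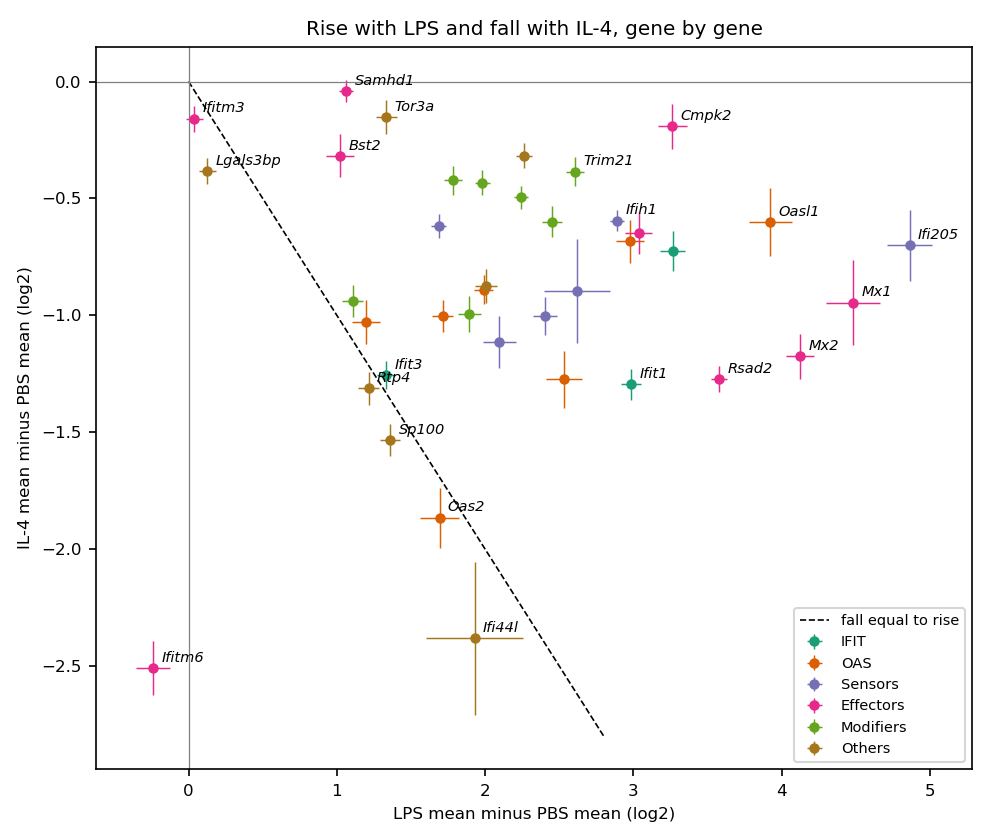
Change with LPS (horizontal axis) and change with IL-4 (vertical axis) of the 39 genes, both as differences from the PBS mean on the log2 scale, with SE bars and colors for the role groups. The dashed line marks a fall equal to the rise, and most genes lie to its right, while Ifit3, Rtp4, Sp100, Oas2 and Ifi44l lie on or near it and Ifitm6 lies far to its left. Both axes use the same PBS arrays.

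The LPS change was related to the resting value of a gene, and the IL-4 change was not to a like extent. Across the 39 genes the PBS mean and the LPS change had a Spearman rho of −0.80 and a Pearson r of −0.83, against −0.31 and −0.16 across all rows. The PBS mean and the IL-4 change had a rho of 0.18 and an r of 0.16, against 0.15 and 0.047. These are descriptions across genes, which are not independent replicates. Each gene is read by its own probes, and a change shares its PBS arrays with the resting value. With the resting value from 1 PBS array and the change taken against the other PBS arrays (likewise added with the values in view), rho was −0.76 to −0.80 for LPS and 0.15 to 0.20 for IL-4. The PBS arrays of a gene differed little (median SD 0.069) beside the spread of PBS means over genes (SD 1.31). This choice could therefore hardly move rho and adds no support, since the change is still taken from the resting level. Without Ifitm3, Ifitm6 and Lgals3bp, which were not called with LPS, rho for LPS was −0.75. The 6 LPS markers also tended to rise less from a higher resting mean. Their rises ran from 8.73 for Il6 (PBS mean 3.53) to 3.64 for Cxcl10 (PBS mean 9.36). The relation is therefore not shown to be particular to the members.

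Split by resting value, the 13 lowest genes (PBS means of 6.81 to 8.77, Mx1, Mx2, Ifi205 and Oasl1 among them) had a median LPS change of 2.62 and a median IL-4 change of −0.90. The middle 13 genes (8.87 to 9.65, with Ifit1, Ifit2, Rsad2 and Ifih1) had medians of 2.45 and −0.62. The highest 13 genes (9.66 to 12.55, with Usp18, Rtp4, Ifit3 and Ifitm3) had medians of 1.20 and −0.94. The genes lay closer together with LPS than in the other conditions, which restates the relation to the resting value and is not a further result. The SD of the condition means over the 39 genes was 0.74 with LPS, 1.31 with PBS and 1.504 with IL-4. The LPS means ran from 10.14 to 12.59, the PBS means from 6.81 to 12.55 and the IL-4 means from 5.64 to 12.40. The order of the genes with IL-4 was close to that at rest (rho 0.90 between the means), and with LPS less so (rho 0.47), where all rows had 0.99 and 0.96. The highest LPS value of a member on any array was 12.64 and the highest of any row was 13.06, and whether the upper end of the array's range limited the rises was not tested.

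**Figure D4:**
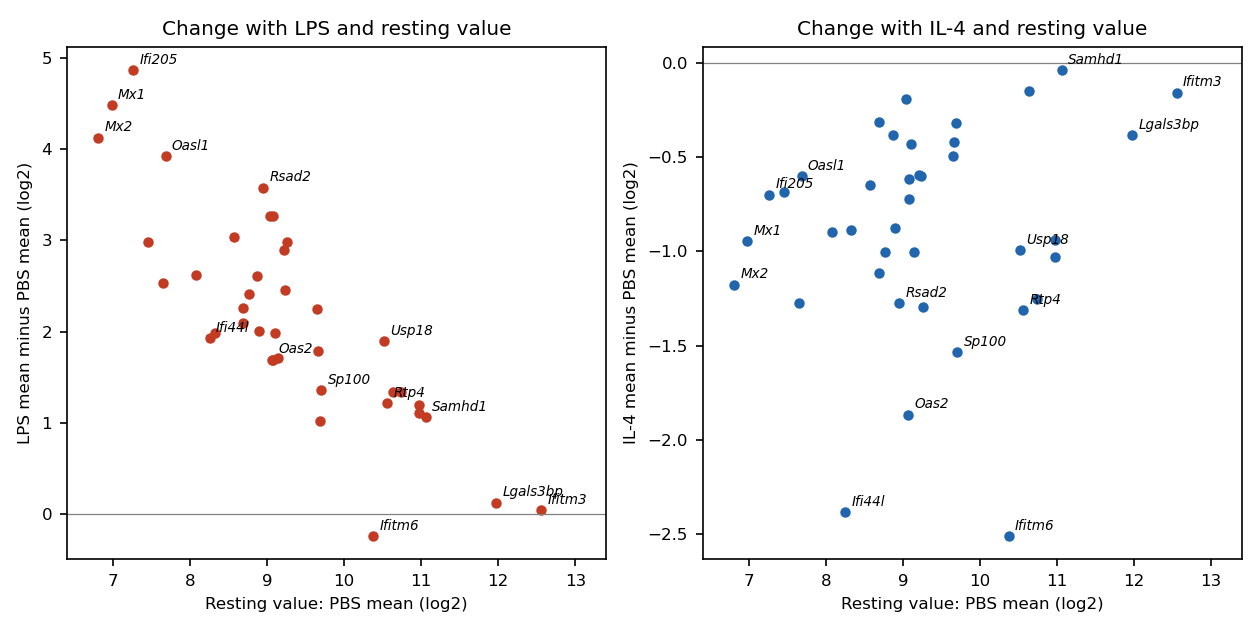
Change with LPS (left, red) and with IL-4 (right, blue) of the 39 genes against the resting value, the PBS mean, all on the log2 scale and 1 point per gene. The LPS change is smaller in genes with a higher resting value (rho −0.80), and the IL-4 change shows no such slope (rho 0.18).

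The genes that make and carry the interferon signal are given from a list of which 27 genes were measured. With LPS 16 were higher and 3 lower, and with IL-4 3 were lower and 1 higher (limma, adjusted p under 0.05). Of all rows 15.4% were higher and 22.4% lower with LPS, and 2.05% were lower and 3.35% higher with IL-4. The counts lower with LPS and higher with IL-4 are thus near or under the shares of all rows. Of the ligands, Ifnb1 (interferon beta) was at 4.82, 4.66 and 4.82 with PBS, 6.62, 6.62 and 6.06 with LPS and 4.54, 4.66 and 4.54 with IL-4. LPS replicate 3 was the lowest LPS array and still above all others, for a rise of 1.67 ± 0.14 (limma adjusted p = 3.23e-05), and the IL-4 change was −0.19 ± 0.14 (adjusted p = 0.496). The resting mean of Ifnb1 lay at percentile 14.6 of all rows, and a fall from so low a value might not be seen. Ifna4 rose by 0.33 ± 0.086, and Ifna1 and Ifna2 were not called (0.08 ± 0.12 and 0.23 ± 0.085). The receptor gene Ifnar1 was at 10.26, 10.25 and 10.24 with PBS, 10.54, 10.50 and 10.64 with LPS and 10.35, 10.47 and 10.43 with IL-4, which is a small rise with LPS (0.31 ± 0.056, limma adjusted p = 0.00229) and 0.16 ± 0.056 with IL-4 (0.147). The kinase Tyk2 rose by 1.03 ± 0.15 with LPS and was not called with IL-4 (−0.098 ± 0.15).

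The 3 pathway genes that were lower with IL-4 were Stat2, Irf9 and Ddx58. Stat2 was at 9.88, 9.87 and 9.93 with PBS, 11.36, 11.44 and 11.52 with LPS and 9.23, 9.08 and 9.10 with IL-4, and Irf9 at 10.49, 10.46 and 10.57 with PBS, 10.98, 11.00 and 11.12 with LPS and 10.04, 9.88 and 9.96 with IL-4. These parts of the complex that binds the response element had the same 3 bands as the members, with rises of 1.55 ± 0.062 and 0.52 ± 0.064 and falls of −0.75 ± 0.062 and −0.55 ± 0.064 (limma adjusted p = 3.55e-04 and 0.00218). Ddx58 (RIG-I), a sensor of viral RNA like Ifih1, was at 10.47, 10.42 and 10.33 with PBS, 11.74, 11.75 and 11.79 with LPS and 9.92, 9.72 and 9.77 with IL-4 and changed by −0.60 ± 0.065 with IL-4 (limma adjusted p = 0.00149). Irf7, which amplifies interferon production, was at 8.89, 8.87 and 9.84 with PBS, 11.59, 11.68 and 11.77 with LPS and 8.01, 8.50 and 7.94 with IL-4. It rose by 2.48 ± 0.26 with LPS, and PBS replicate 3 was far above the other PBS arrays. The IL-4 change of Irf7 was −1.05 ± 0.26 and was not called (limma adjusted p = 0.0558). With array weights 13 pathway genes were lower with IL-4 and 3 higher, and without replicate 3 of PBS and of LPS 11 and 2.

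Not every inducible gene followed the same order. Irf1, a factor that also answers to NF-κB and interferon gamma, was at 9.15, 9.24 and 9.09 with PBS, 11.75, 11.81 and 11.49 with LPS and 9.35, 9.24 and 9.29 with IL-4, with a 5.76-fold rise with LPS (2.53 ± 0.087) and 0.14 ± 0.087 with IL-4 (limma adjusted p = 0.402). Socs1, an inhibitor of JAK kinases, was at 7.49, 7.18 and 7.34 with PBS, 10.14, 10.02 and 10.27 with LPS and 8.53, 8.56 and 8.56 with IL-4. It rose with LPS (2.81 ± 0.09) and also with IL-4 (1.21 ± 0.09, limma adjusted p = 2.47e-04). Cxcl10, a chemokine named for its induction by interferon, was at 9.40, 9.56 and 9.11 with PBS, 12.96, 12.97 and 13.06 with LPS and 10.63, 10.59 and 10.59 with IL-4. Its IL-4 values lay above all PBS values, for a rise of 1.25 ± 0.10 with IL-4 (limma adjusted p = 3.51e-04), the opposite direction to that of the members. Mavs, the adaptor of Ifih1 and Ddx58, was at 10.11, 10.11 and 9.89 with PBS, 9.02, 8.98 and 8.87 with LPS and 9.91, 9.91 and 9.88 with IL-4 and was lower with LPS (−1.08 ± 0.071, limma adjusted p = 6.41e-06). The other genes lower with LPS were Irf3 (−0.32 ± 0.054) and Tmem173 (STING, −0.46 ± 0.14).

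**Figure D5:**
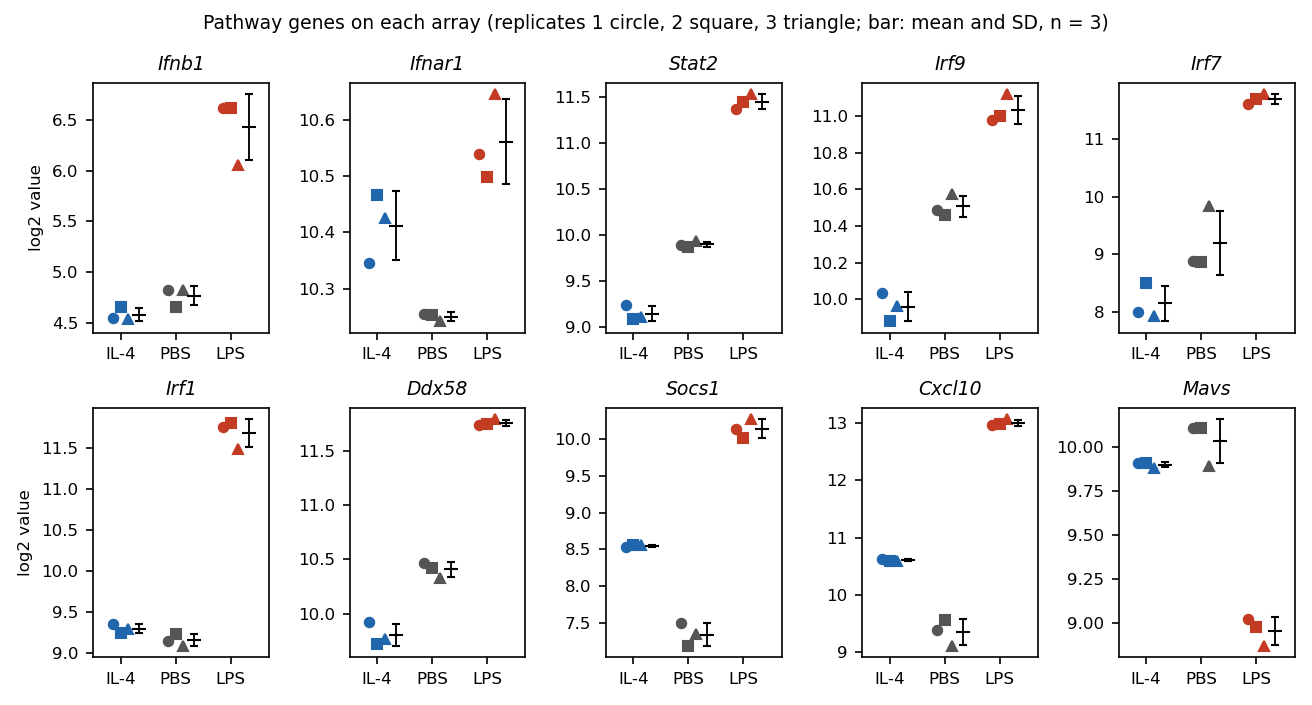
Log2 values of 10 pathway genes on each array, in blue for IL-4, grey for PBS and red for LPS, with circles, squares and triangles for replicates 1, 2 and 3 and a bar for the mean and SD of 3 arrays, each panel on its own scale. Stat2, Irf9 and Ddx58 form the order IL-4, PBS, LPS of the members, Socs1 and Cxcl10 are above PBS with both stimuli, and Mavs is lowest with LPS.

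A second list held 38 interferon-stimulated genes outside the 42, of which 35 were measured. With LPS 31 were higher and none lower (limma, and none at an unadjusted p under 0.05 by limma or the t-test), with a median change of 1.52, and with IL-4 21 were lower and none higher (likewise none at an unadjusted p), with a median of −0.38. Both changes were called for 20. Of all rows 15.4% were higher with LPS, 2.05% were lower with IL-4 and 0.778% were both. Like the members, this list was chosen with earlier results of these data known. Without PBS replicate 2 only 13 were called lower with IL-4, and without IL-4 replicate 2 or IL-4 replicate 3 only 12. The largest rises were 3.72 ± 0.25 for Ms4a4c, 3.61 ± 0.16 for Ifit3b, 3.17 ± 0.10 for Gbp3 and 3.09 ± 0.065 for Helz2. The largest falls were −1.56 ± 0.16 for Ifit3b, −1.38 ± 0.25 for Ms4a4c, −1.36 ± 0.055 for Phf11d and −0.97 ± 0.15 for Ifi27l2a. Ifit3b, the near copy of Ifit3, was at 7.25, 7.25 and 7.29 with PBS, 10.61, 10.76 and 11.24 with LPS and 5.62, 5.92 and 5.57 with IL-4. Ifitm1 and Ifitm2 were, like Ifitm3, not called with LPS or with IL-4, with LPS changes of 0.37 ± 0.19 and 0.026 ± 0.05 and IL-4 changes of 0.098 ± 0.19 and −0.018 ± 0.05.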

How the data were processed

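Total RNA of 9 microglia samples, 3 per condition, was hybridised by the authors to Affymetrix Mouse Exon 1.0 ST arrays. The authors deposited log2 values per gene, made with RMA and affy (version not given in the sources used here). RMA subtracts background, equalizes the array distributions and combines the probes of a gene, so that a change in total RNA per cell is not visible and high or low values can be compressed. The miRNA arrays of the study are not used here.

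Rows were named through the platform annotation, which gives 1 symbol for 18786 of the 21212 rows, several for 6 and none for 2420. Conditions came from the sample labels. LPS, IL-4 and PBS were compared with limma 3.58.1 (R 4.3.3) over all 9 arrays with 1 mean per condition, and p-values were adjusted by the method of Benjamini and Hochberg over 21212 rows. SEs are those of limma. A gene is called at an adjusted p under 0.05. No filter was applied to low values, so all 39 members with a row were tested. The members and the gene lists were chosen with earlier results of these data known, and genes were given array by array where they had the 2 largest changes of their role group in a comparison or missed the test. The script was tested on simulated data.

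Deviations of LPS and PBS arrays from their condition means correlated for each replicate number (0.578, 0.651 and 0.800). Replicates 1 and 2 also correlated across numbers (0.542 and 0.605), and replicate 3 was opposed to both (−0.717 to −0.630), so that a pairing by each number is not shown. For IL-4 and PBS arrays of the same number the correlations were 0.339, −0.255 and 0.075. The main fit did not use the replicate number, which served as a block only among the alternatives. Alternatives were the t-test of the methods, the 6 arrays of a comparison alone, eBayes with a trend, array weights, quantile normalization, array medians subtracted, the 7070 dimmest rows left out, the replicate number as a block and each array left out in turn. The setting without replicate 3 of PBS and of LPS, the test of rise against fall and the resting value from 1 PBS array were added with the values in view. Promoter sequences are from RefSeq (GRCm38.p6). Python 3.11.15 with pandas 2.3.3, numpy 2.4.6, scipy 1.17.1 and matplotlib 3.10.9 was used for tables and plots.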

Additional observations from a re-analysis of the deposited data

How the results depend on the processing

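The directions held under every alternative run, and no member's change was reversed. Over 18 alternatives 35 to 37 members were called higher with LPS, 26 to 37 lower with IL-4 (26 by the t-test, 37 with array weights, 28 to 33 with 1 array left out), 38 or 39 higher with LPS than with IL-4, and 24 to 35 both higher with LPS and lower with IL-4. The count of members lower with LPS was 0, and 1 (Ifitm6) with array weights, with quantile normalization and without replicate 3 of PBS and of LPS. The call of 36 of 39 members was the same in every alternative for LPS, of 27 for IL-4 and of 38 for LPS against IL-4, and the calls lost or gained with IL-4 were for changes under 1 on the log2 scale, of Ifi205, Mx1, Trim21, Ifi35, Ifit2, Isg20 and Lgals3bp (lost) and of Oasl1, Ifi204, Bst2, Ifitm3 and Tor3a (gained). The order IL-4, PBS, LPS without overlap was found for 34 to 37 members over 11 alternatives. With the replicate number as a block 36 members were higher with LPS, 33 lower with IL-4 and 31 both, and Ifi204 was the only member whose call changed. The Spearman rho between resting value and change was −0.81 to −0.76 for LPS, and with 1 array left out 0.12 to 0.23 for IL-4 (lowest without PBS replicate 3, highest without PBS replicate 1). In the other lists the number of interferon-stimulated genes lower with IL-4 was 12 to 26, and that of pathway genes 3 to 13. The number of arrays, 3 per condition, limits the precision of the smaller changes. The causes of the lost and gained calls were not tested.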

Other observations

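Of 6 genes known to rise with LPS, 5 were also higher with IL-4 than with PBS (limma, adjusted p under 0.05), where 3.35% of all rows were. Most of the interferon-stimulated genes were lower on the same arrays. Ptgs2, the cyclooxygenase of inflammation, was at 7.20, 7.33 and 6.24 with PBS, 12.53, 12.57 and 12.54 with LPS and 8.35, 8.60 and 8.69 with IL-4. Its IL-4 change was 1.62 ± 0.25 (limma adjusted p = 0.00873), although PBS replicate 3 lay far below the other PBS arrays. Il1b, which encodes interleukin 1 beta, was at 6.92, 7.12 and 6.98 with PBS, 12.61, 12.66 and 12.72 with LPS and 8.17, 8.39 and 8.13 with IL-4, with IL-4 values above all PBS values (1.22 ± 0.084, limma adjusted p = 1.69e-04). Il6 and Tnf were higher with IL-4 by 0.81 ± 0.10 and 0.72 ± 0.13, and Nos2 was not called (−0.024 ± 0.11). With LPS the rises of Il6, Tnf, Il1b, Nos2 and Ptgs2 ran from 5.01 (Tnf) to 8.73 (Il6).

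Of the IL-4 receptor pathway, 7 of 8 listed genes were measured. With IL-4, Il4ra and Il13ra1, which encode receptor chains, were lower (−0.52 ± 0.073 and −0.44 ± 0.066, limma adjusted p = 0.00551 and 0.00743), and Cish and Socs2, inhibitors of cytokine signals, were higher (2.42 ± 0.36 and 0.85 ± 0.19, adjusted p = 0.00736 and 0.0371). PBS replicate 3 lay below the other PBS arrays for Cish (6.18 against 7.49 and 7.38) and for Socs2 (8.94 against 9.56 and 9.59). LPS replicate 3 of Cish was also low (8.90 against 9.82 and 9.79). With LPS Il13ra1 and Cish were higher (1.46 ± 0.066 and 2.48 ± 0.36) and Stat6, the factor of the IL-4 response, was not called (−0.36 ± 0.16).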
